A study of Mus musculus with 6 samples.

Results

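The genes described here are 10 genes of the retinal endothelium and of angiogenesis, *Pecam1*, *Kdr*, *Flt1*, *Tek*, *Cldn5*, *Esm1*, *Plvap*, *Vwf*, *Angpt2* and *Vegfa*, chosen by symbol from the 21744 genes of an RNA-seq table of the mouse retina at postnatal day 7 (P7). The table held 6 libraries, 3 of each genotype (control and *Lhx4* null, on a mixed C57BL/6J; 129S6 background), and each library was made from the retinas of 1 mouse after the pigment epithelium had been dissected away. *Lhx4* null mice carry a tdTomato knockin allele and a loxP allele of *Lhx4* together with *Six3-Cre*, a Cre transgene used to inactivate the gene in the retina. The labels call the other group only control, and its alleles in the RNA-seq mice are not given in the sources used here. Levels are given as FPKM, fragments scaled to transcript length and to the depth of the library, a scale per length on which different genes can be compared. Differences are given as log2 fold changes of FPKM + 0.1, the null group minus the control group, from a limma fit over all 15200 genes averaging at least 0.1 FPKM, and adjusted p-values are over all of those genes.

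In the mouse, the retinal vessels grow from the optic nerve head outwards over the first postnatal weeks, so that P7 falls within the spread of the superficial plexus. Endothelial cells enter the retina from outside rather than arising from retinal progenitors. Retinal glia and neurons in tissue short of oxygen make VEGFA, whose signal through KDR on endothelial cells drives sprouting, while FLT1 binds the same ligand as a decoy, and angiopoietin 2 tunes the receptor TEK.

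The libraries carried the RNA of the retina that their labels name, since all 8 retina-defining genes were detected in every library, with *Crx*, the cone-rod homeobox gene, between 502 and 589 FPKM. *Lhx4* itself was at 20.9, 23.8 and 19.1 FPKM in the controls and at 31.2, 30.3 and 29.0 FPKM in those labelled null. Its level over the whole gene was therefore above every control in each of the latter (log2 fold change 0.51 ± 0.09 SE, limma adjusted p = 0.098), which is why the text speaks of libraries labelled null. The files do not give the part of the gene that Cre removes, so this level does not check the deletion. The libraries labelled null were shallower, at 46.7% to 65.9% of the depth of the deepest library, against 76.8% to 100% for the controls. In a whole retina, fewer endothelial cells and less RNA per endothelial cell cannot be told apart.

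None of the 10 vessel genes passed an adjusted p of 0.05 (limma), where 34 of the 15200 genes tested did (0.224%). *Esm1* stayed under the filter, and of the 9 members tested, *Vegfa* and *Pecam1* were lower and *Kdr* and *Plvap* higher in the libraries labelled null at an unadjusted p of 0.05. Those 2 lower and 2 higher calls stand beside a background of 3.55% of all genes called lower, 4.6% called higher and 8.15% called in either direction. The groups did not overlap for 2 members, *Vegfa* and *Plvap*, where they did not overlap for 14.2% of all genes tested. Fold changes were negative for 5 of the 9 and positive for 4, with a median of -0.13 against 0.01 over all genes. Over all genes tested, the count at the unadjusted threshold was 1239, and 690 to 1980 with a library left out. The count of 4 members also changed with the library left out. It was 0 without control replicate 1, 1 without control replicate 2, without labelled null replicate 1 or without labelled null replicate 2, and 2 without labelled null replicate 3. The median was 0.04 without control replicate 2 and 0.0025 without labelled null replicate 2.

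**Figure D1:**
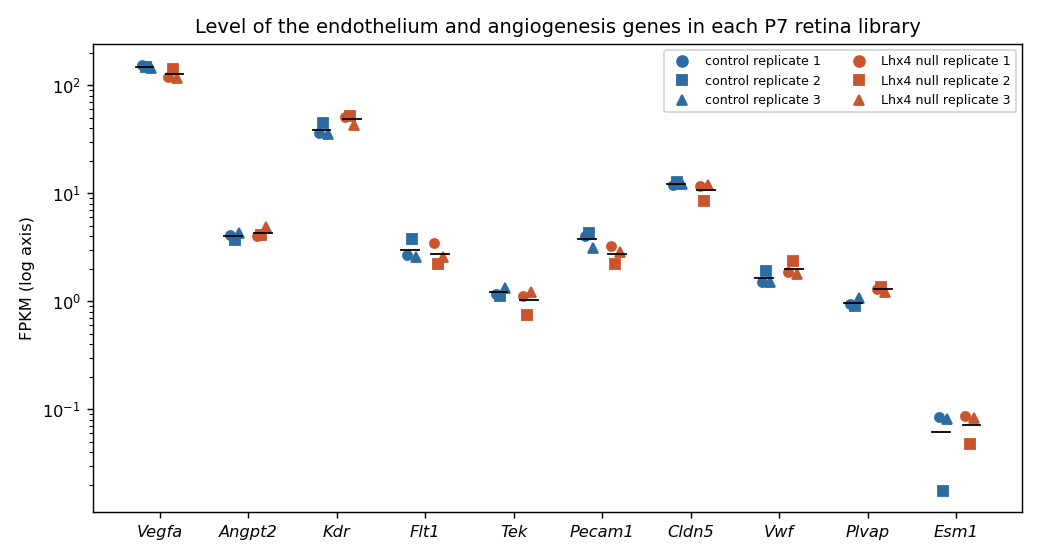
FPKM on a log axis for each of the 10 genes in each of the 6 libraries, controls in blue and libraries labelled null in orange, with a symbol for each replicate and a bar at each group mean. The genes span from 137 FPKM for *Vegfa* to 0.0671 FPKM for *Esm1*, and the groups separate for *Vegfa* and *Plvap* alone among the 10.

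The levels of the 10 genes fell into a clear order over all 6 libraries. *Vegfa* stood highest with a mean of 137 FPKM, followed by *Kdr* with 43.4 FPKM and *Cldn5* with 11.5 FPKM, and the ranges of these 3 genes did not touch each other or those of the rest. *Angpt2* (4.18 FPKM), *Pecam1* (3.28 FPKM), *Flt1* (2.87 FPKM) and *Vwf* (1.82 FPKM) followed, each with a range over the libraries that overlapped that of the next of these 4, and the range of *Vwf* lay above that of *Plvap*. *Plvap* (1.14 FPKM) and *Tek* (1.12 FPKM) overlapped as well, and *Esm1* lay far under both at 0.0671 FPKM. The receptor *Kdr* was thus well above the other endothelial receptors *Flt1* and *Tek* in whole retina RNA, to which cells of the neural retina are also known to contribute *Kdr*.

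*Vegfa* (chr17:46016993-46032369 on GRCm38, GENCODE vM21, as for the positions of the other members), the gene of the main attractant and growth factor of sprouting endothelium, was at 153, 147 and 143 FPKM in the controls and at 119, 141 and 116 FPKM in those labelled null. Each library labelled null was below each control, but replicate 2 was only just so. The level was 84.6% of control, with a log2 fold change of -0.24 ± 0.09 SE (95% interval -0.44 to -0.04, unadjusted p = 0.025, limma adjusted p = 0.56). Leaving out 1 library at a time gave -0.33 to -0.19.

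*Vegfa* transcription is induced by hypoxia-inducible factors, and 14 other genes of the hypoxia response were read beside it, among them the factors themselves and the glycolytic enzymes and mitochondrial regulators that they induce. No gene of the 14 passed the adjusted p, and 7 were lower and 2 higher at the unadjusted threshold, 9 of 14 where the background is 8.15%. The groups did not overlap for 8 of the 14, 7 of them lower in the libraries labelled null, against 14.2% of all genes. The median fold change of the list was -0.20, within -0.25 to -0.17 when each library was left out in turn. The count of 9 was 4 without control replicate 3, 4 without labelled null replicate 2, 5 without labelled null replicate 1 and 6 without control replicate 1.

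*Hk2*, a hexokinase that starts glycolysis, was at 4.25, 4.24 and 3.50 FPKM in the controls and at 2.31, 2.12 and 2.90 FPKM in those labelled null. The groups were apart, with the libraries labelled null at 61.8% of control (log2 fold change -0.69 ± 0.15 SE, unadjusted p = 0.0016, limma adjusted p = 0.21). *Ankrd37*, a small ankyrin repeat gene known as a hypoxia target, was at 33.7, 28.1 and 33.0 FPKM in the controls and at 22.2, 20.3 and 25.8 FPKM in those labelled null. Here too every library labelled null was under every control (log2 fold change -0.47 ± 0.11 SE, unadjusted p = 0.0023, limma adjusted p = 0.24). Among the most abundant genes of the list, *Ldha*, lactate dehydrogenase, was at 757 to 846 FPKM in the controls and 692 to 733 FPKM in those labelled null without reaching the unadjusted threshold (log2 fold change -0.19 ± 0.09 SE, limma adjusted p = 0.64). *Ndrg1*, a stress-induced gene, went the other way with 293 to 299 FPKM against 294 to 373 FPKM, and its groups overlapped. The 2 genes higher at the unadjusted threshold were *Epas1*, which encodes HIF2A and is abundant in endothelium, with a log2 fold change of 0.20 ± 0.08 SE, and *Car9*, a carbonic anhydrase, with 0.95 ± 0.39 SE at levels under 1 FPKM.

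**Figure D2:**
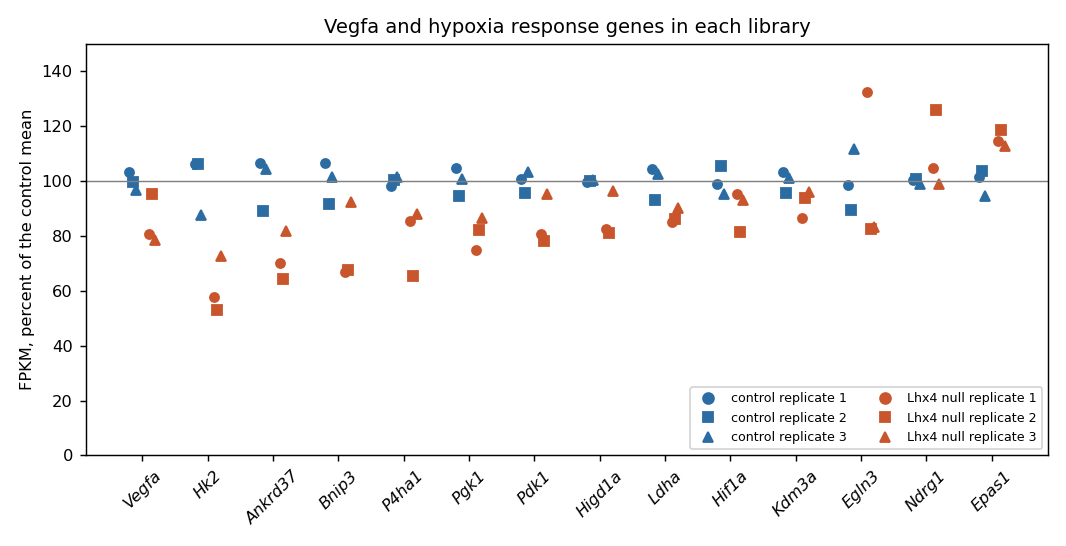
FPKM of *Vegfa* and of 13 of the 14 hypoxia response genes in each library as a percent of that gene's control mean, with the line at 100%, controls in blue and libraries labelled null in orange, genes after *Vegfa* ordered by fold change. *Car9* is not drawn because its level is under 1 FPKM in every library. By the fitted log2 fold change, which is not the scale drawn, *Vegfa* in the libraries labelled null is at 84.6% of control, and *Hk2*, the lowest, at 61.8%.

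As 7 of these genes were lower at the unadjusted threshold, the letters ACGTG, the core of the hypoxia response element, were looked for on both strands in the 250 bases upstream of the start in RefSeq promoters of GRCm38.p6, 1 window per gene. They occurred in 16.5% of the 27025 promoters and in 0 of the 6 members with an entry, *Vegfa* included. Of the 12 hypoxia response genes that had an entry, 9 held them, with *Hif1a* among these. That list was made of the factors themselves and of known targets of the factors. The windows of *Vegfa* (chr17:46032378-46032627), *Hk2* (chr6:82774455-82774704) and *Ankrd37* (chr8:45999868-46000100, 233 bases), all on the minus strand, are printed 5′ to 3′ to show a window without a match beside those with 2 matches and 1 match, and capitals mark ACGTG or its reverse complement CACGT.
Vegfa: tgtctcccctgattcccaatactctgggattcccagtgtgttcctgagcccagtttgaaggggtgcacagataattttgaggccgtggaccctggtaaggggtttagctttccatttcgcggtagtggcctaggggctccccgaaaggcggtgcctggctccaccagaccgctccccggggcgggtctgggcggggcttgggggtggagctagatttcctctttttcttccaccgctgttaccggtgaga
Hk2: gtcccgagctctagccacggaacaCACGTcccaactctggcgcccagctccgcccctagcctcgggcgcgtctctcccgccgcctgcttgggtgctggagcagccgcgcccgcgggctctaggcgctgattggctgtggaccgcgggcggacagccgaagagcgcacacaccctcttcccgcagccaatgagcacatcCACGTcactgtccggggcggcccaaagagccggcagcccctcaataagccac
Ankrd37: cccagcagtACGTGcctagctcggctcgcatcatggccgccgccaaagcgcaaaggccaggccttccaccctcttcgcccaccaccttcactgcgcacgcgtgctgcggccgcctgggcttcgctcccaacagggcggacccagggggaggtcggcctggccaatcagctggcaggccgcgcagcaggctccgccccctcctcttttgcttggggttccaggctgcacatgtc
Of the genes lower at the unadjusted threshold, *Hk2*, *Ankrd37*, *Bnip3*, *P4ha1* and *Pgk1* held a match and *Pdk1* and *Higd1a* held none. *Car9*, which was higher, and *Egln3*, with a log2 fold change of -0.04, also held at least 1. Of the hypoxia response genes with an entry, only *Car9* had a positive change, so matches could not be set against direction. A match describes letters and not a bound site, and the window without one says nothing of elements farther from the *Vegfa* start.

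*Angpt2* (chr8:18690263-18741562), the gene of the angiopoietin that endothelial tip cells release and that loosens vessels for sprouting, was at 4.13, 3.69 and 4.28 FPKM in the controls and at 4.03, 4.11 and 4.85 FPKM in those labelled null. The groups overlapped and the interval of the change, from -0.17 to 0.37, held 0 (log2 fold change 0.10 ± 0.12 SE, limma adjusted p = 0.86). It was 0.016 without labelled null replicate 3 and 0.04 without control replicate 2. *Tek* (chr4:94739289-94874976), the receptor TIE2 to which the angiopoietins bind, was at 1.17, 1.12 and 1.33 FPKM in the controls and at 1.11, 0.751 and 1.22 FPKM in those labelled null. Only replicate 2 of the libraries labelled null lay apart from the other 5 libraries. The log2 fold change of *Tek* was -0.24 ± 0.20 SE (95% interval -0.70 to 0.22, limma adjusted p = 0.78), and it was -0.05 without that library.

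*Kdr* (chr5:75932827-75978458), the gene of VEGFR2, the main signalling receptor for VEGFA, was at 35.9, 44.4 and 35.5 FPKM in the controls and at 50.3, 51.4 and 42.8 FPKM in those labelled null. Its groups overlapped at control replicate 2 and labelled null replicate 3, and the other libraries labelled null were above every control. The level was 125% of control (log2 fold change 0.32 ± 0.11 SE, 95% interval 0.07 to 0.57, unadjusted p = 0.019, limma adjusted p = 0.53). *Flt1* (chr5:147561604-147726011), the decoy receptor VEGFR1, was at 2.68, 3.77 and 2.55 FPKM in the controls and at 3.44, 2.22 and 2.54 FPKM in those labelled null, so that the groups interleaved. Its log2 fold change of -0.13 ± 0.20 SE (95% interval -0.60 to 0.33, limma adjusted p = 0.90) turned to 0.04 without control replicate 2 and to 0.0025 without labelled null replicate 2.

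*Pecam1* (chr11:106654217-106750628), the gene of the junctional adhesion molecule CD31 that marks endothelium, was at 4.06, 4.25 and 3.08 FPKM in the controls and at 3.23, 2.20 and 2.84 FPKM in those labelled null. The groups overlapped because control replicate 3 was below labelled null replicate 1. The level was 73.1% of control (log2 fold change -0.45 ± 0.18 SE, 95% interval -0.86 to -0.04, unadjusted p = 0.035, limma adjusted p = 0.59). *Cldn5* (chr16:18776847-18778262), the claudin of endothelial tight junctions and of the blood-retina barrier, was at 11.8, 12.7 and 12.2 FPKM in the controls and at 11.7, 8.56 and 11.8 FPKM in those labelled null. Labelled null replicate 2 lay far under the other 5 libraries, which differed little from each other. The log2 fold change of *Cldn5* was -0.20 ± 0.13 SE (95% interval -0.50 to 0.09, limma adjusted p = 0.71), and it was -0.05 without that library.

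*Vwf* (chr6:125546774-125686679), the von Willebrand factor that endothelium stores and releases for clotting and that is typical of larger vessels and veins, was at 1.49, 1.92 and 1.51 FPKM in the controls and at 1.88, 2.36 and 1.77 FPKM in those labelled null. The groups overlapped and labelled null replicate 2 was the highest (log2 fold change 0.27 ± 0.17 SE, 95% interval -0.11 to 0.65, limma adjusted p = 0.70), and the change was 0.15 without that library. *Plvap* (chr8:71497765-71511752), which builds the diaphragms of fenestrated endothelium and is known to be low in barrier vessels and high in the choriocapillaris, was at 0.936, 0.908 and 1.08 FPKM in the controls and at 1.31, 1.36 and 1.23 FPKM in those labelled null. Every library labelled null was above every control, at 131% of control (log2 fold change 0.38 ± 0.15 SE, 95% interval 0.04 to 0.73, unadjusted p = 0.033, limma adjusted p = 0.59). *Esm1* (chr13:113209659-113218098), endocan, a secreted product of tip cells, was at 0.0853, 0.0177 and 0.0817 FPKM in the controls and at 0.0876, 0.0474 and 0.0826 FPKM in those labelled null. Read against the value of a single fragment in each library, these levels stood for 6, 1 and 6 fragments and for 3, 2 and 4 fragments, 22 in all, and a difference in *Esm1* was not detectable at this depth.

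*Plvap* was higher in the same libraries as genes of the choroid and pigment epithelium and of fibroblasts. The 8 genes of the choroid and pigment epithelium list summed to 22.0 to 45.1 FPKM in the controls and to 47.8 to 84.5 FPKM in those labelled null, and 5 of the 8 were higher at the unadjusted threshold, where 4.6% of all genes were, with a median of 0.75. That count was 3 without control replicate 3, labelled null replicate 2 or labelled null replicate 3. *Ttr* was the largest part of the sum in every library, at 11.9 to 25.9 FPKM in the controls and 27.8 to 48.5 FPKM in those labelled null. With the 8 genes weighed equally the groups overlapped. Their mean log2 deviation was 0.09 in control replicate 1 and -0.06 in labelled null replicate 1. *Pmel*, a protein of the pigment granule, was at 3.95 to 7.51 FPKM in the controls and 8.98 to 16.2 FPKM in those labelled null, whereas *Rpe65*, the visual cycle enzyme that defines the pigment epithelium, overlapped at 0.457 to 0.975 FPKM against 0.465 to 1.61 FPKM. *Best1*, a chloride channel of the pigment epithelium, had the only negative change of the 8, at 70.9% of control with overlapping groups (log2 fold change -0.50 ± 0.32 SE, limma adjusted p = 0.71). The fibroblast list summed to 4.63 to 5.71 FPKM in the controls and to 11.3 to 12.2 FPKM in those labelled null, with 3 of its 5 tested genes higher at the unadjusted threshold (4.6% of all genes), and it held the only 2 genes past the adjusted p among the 105 tested genes of all the companion lists. These were *Fbln2*, a matrix fibulin, with a log2 fold change of 1.24 ± 0.11 SE (limma adjusted p = 0.0044), and *Col1a2*, a chain of type I collagen, with 1.26 ± 0.18 SE (limma adjusted p = 0.049), and the call of *Col1a2* was lost whichever library was left out (adjusted p between 0.076 and 0.21). The other chain, *Col1a1*, stayed between 0.0593 and 0.180 FPKM in all 6 libraries, and *Lum*, a fibroblast proteoglycan, was listed at 0 in 5 of them. *Col3a1*, the type III collagen of the same list, went the other way, at 0.734, 0.527 and 0.689 FPKM in the controls and 0.511, 0.507 and 0.511 FPKM in those labelled null, lower without overlap but short of the unadjusted threshold (log2 fold change -0.29 ± 0.19 SE, limma adjusted p = 0.72). Within a group the pigment and choroid sum did not follow *Plvap*: control replicate 3 had the highest *Plvap* and the lowest sum of the controls, and labelled null replicate 3 the lowest *Plvap* and the highest sum of those labelled null. The part of either list in the *Plvap* values was not tested.

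**Figure D3:**
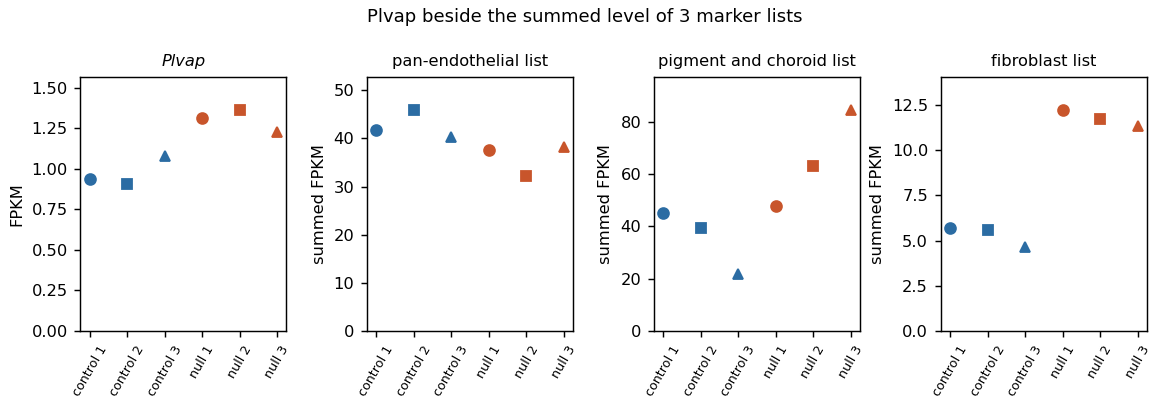
*Plvap* in FPKM and the summed FPKM of the pan-endothelial, the pigment and choroid and the fibroblast lists in each of the 6 libraries, controls in blue and libraries labelled null in orange, each axis starting at 0. *Plvap*, the pigment and choroid sum and the fibroblast sum are higher in each library labelled null than in each control, and the pan-endothelial sum is lower in each. The largest part of the pigment and choroid sum is *Ttr*, and with its genes weighed equally that list overlaps between the groups.

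As ratios between members within a library depend little on how that library was scaled, 5 were taken as differences of log2(FPKM + 0.1), in which the added 0.1 FPKM weighs on low genes and most of all on *Esm1*, and tested by an exact permutation test over the 6 libraries, two-sided, for which 3 against 3 cannot give a p below 0.1. The ratio of *Flt1* to *Kdr*, decoy to signalling receptor, was lower in the libraries labelled null by a log2 difference of -0.45, with values of -3.70, -3.52 and -3.75 in the controls and -3.83, -4.47 and -4.02 in the libraries labelled null. *Vegfa* to *Kdr*, ligand to receptor, was lower by -0.56, from 2.08, 1.73 and 2.01 to 1.24, 1.46 and 1.44. As cells of the neural retina also contribute *Kdr* to whole retina RNA, neither ratio reads the endothelium alone. *Plvap* to *Cldn5*, fenestrated to barrier endothelium, was higher by 0.59, and *Angpt2* to *Tek* was higher by 0.34. These 4 ratios did not overlap between groups and each reached the smallest p the design allows (exact permutation p = 0.1, 0.125 adjusted over the 5). They are made of the member values given above, and the *Flt1* and *Vegfa* ratios share *Kdr*, so they restate those changes. Overlap among ratios of other gene pairs was not counted. *Esm1* to *Pecam1* overlapped, with a difference of 0.57 (exact permutation p = 0.2, adjusted 0.2). Without labelled null replicate 2 the difference was -0.27 for *Flt1* to *Kdr* and 0.18 for *Angpt2* to *Tek*, and the 5 directions held with each library left out.

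The other ligands and receptors of the VEGF and angiopoietin families showed 0 of 10 tested genes past the adjusted p and 2 at the unadjusted threshold, where 8.15% of all genes passed, with a median fold change of 0.13. The count was 1 in 7 of the 14 alternatives, among them leaving out any control or labelled null replicate 1, and the median ranged from 0.05 to 0.20. Both of the 2 were higher in the libraries labelled null. *Vegfb*, a VEGF family ligand that binds FLT1, was at 16.0, 15.3 and 16.2 FPKM in the controls and at 18.0, 20.5 and 17.9 FPKM in those labelled null, without overlap (log2 fold change 0.24 ± 0.08 SE, unadjusted p = 0.017, limma adjusted p = 0.52). *Nrp2*, a co-receptor for VEGF family ligands and semaphorins, was at 5.36 to 6.43 FPKM in the controls and 6.30 to 7.29 FPKM in those labelled null (log2 fold change 0.25 ± 0.11 SE, unadjusted p = 0.046, limma adjusted p = 0.61). *Figf*, the gene of VEGFD, stayed under the filter in the mean. *Tie1* and *Ptprb*, partners of TEK in the endothelium, were lowest in labelled null replicate 2, at 1.74 and 0.497 FPKM, where the other 5 libraries lay between 2.46 and 2.63 and between 0.810 and 1.05 FPKM.

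**Figure D4:**
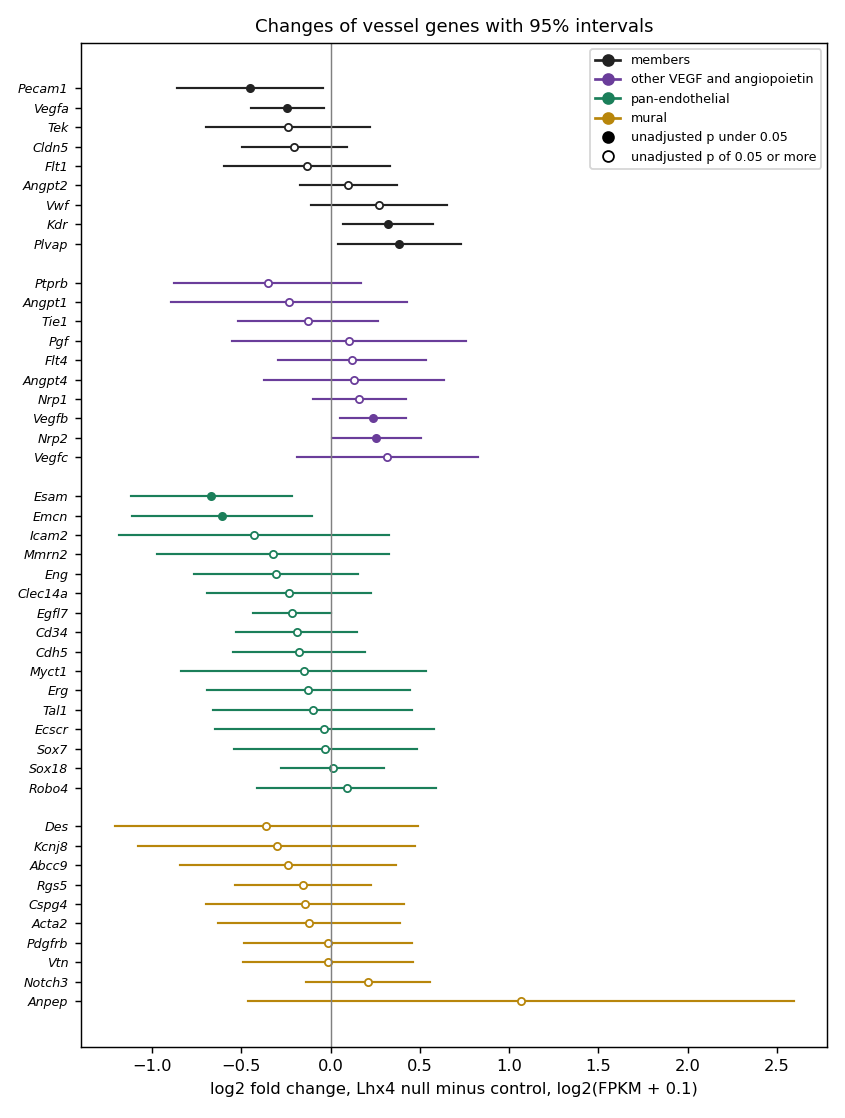
Log2 fold changes of log2(FPKM + 0.1), labelled null minus control, with 95% intervals from limma for the 9 members tested, the other VEGF and angiopoietin genes, the pan-endothelial genes and the mural cell genes, each group in its own colour and filled points where the unadjusted p is under 0.05. Pan-endothelial points lie left of 0 for 14 of 16 genes, and the mural interval of *Anpep* is the widest, from -0.46 to 2.59.

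Genes that mark all endothelium lay mostly below control. Of the 16 pan-endothelial genes tested, 14 had a negative fold change and 2 a positive one, with a median of -0.18, yet 0 passed the adjusted p and 2 were lower at the unadjusted threshold, where 3.55% of all genes were. *Esam*, an endothelial adhesion molecule of tight junctions, was at 4.29, 5.74 and 4.19 FPKM in the controls and at 3.68, 2.24 and 3.00 FPKM in those labelled null, without overlap (log2 fold change -0.67 ± 0.20 SE, unadjusted p = 0.0090, limma adjusted p = 0.43). *Emcn*, endomucin, a sialoprotein of capillaries and veins, was at 1.28, 1.47 and 1.77 FPKM in the controls and at 0.720, 0.929 and 1.26 FPKM in those labelled null, with the groups just apart (log2 fold change -0.61 ± 0.22 SE, unadjusted p = 0.024, limma adjusted p = 0.56). The 2 most abundant genes of the list, *Egfl7*, a secreted endothelial matrix protein, and *Cd34*, a sialomucin, were at 86.1% and 87.7% of control with overlapping groups. The list summed to 41.7, 45.8 and 40.3 FPKM in the controls and to 37.5, 32.3 and 38.3 FPKM in those labelled null.

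A single library carried much of that difference. Labelled null replicate 2 had the lowest value of the 6 libraries for 8 of the 16 pan-endothelial genes and the highest for 0, whereas over all genes tested it was lowest for 19.4% and highest for 27.3%. It was also the lowest for 4 of the 9 members tested, *Pecam1*, *Flt1*, *Tek* and *Cldn5*, for 7 of the 13 Norrin and barrier genes and for 5 of the 10 mural genes. Its mean deviation from the 6-library mean over the pan-endothelial list was -0.31 on the log2 scale, against -0.04 and 0.02 for the other libraries labelled null. Without it the median change of the pan-endothelial list was -0.09. *Vwf*, *Plvap* and *Kdr* did not share the low values and were highest in that same library.

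**Figure D5:**
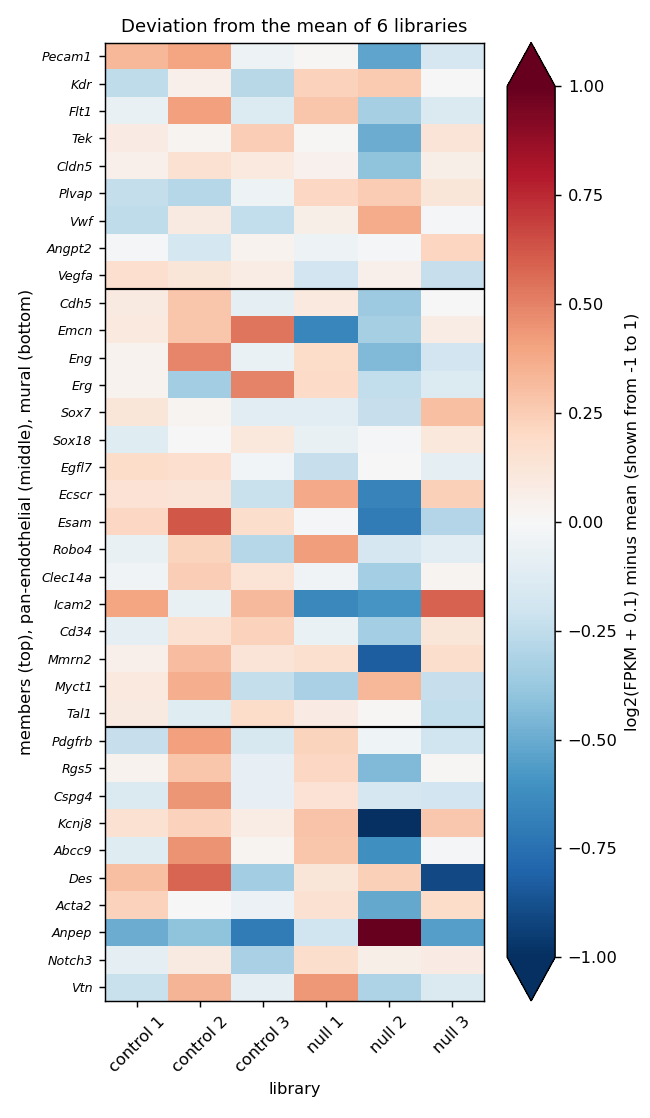
Deviation of each gene's log2(FPKM + 0.1) from its mean over the 6 libraries, in red above and blue below, for the 9 members tested (top), the 16 pan-endothelial genes (middle) and the 10 mural cell genes (bottom), with colours limited at -1 and 1. The column of labelled null replicate 2 is blue for most pan-endothelial genes, while *Kdr*, *Plvap*, *Vwf* and *Anpep* are red in it.

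Genes of sprouting showed no common direction. Among 12 tip and stalk cell genes, 0 passed the adjusted p, 1 was lower and 2 were higher at the unadjusted threshold (3.55% and 4.6% of all genes), and the median was 0.15. *Adm*, adrenomedullin, a tip cell peptide that hypoxia also induces, was at 0.868, 0.904 and 0.649 FPKM in the controls and at 0.419, 0.377 and 0.666 FPKM in those labelled null, overlapping at 1 library of each group (log2 fold change -0.65 ± 0.24 SE, unadjusted p = 0.027, limma adjusted p = 0.57). *Hey1*, a target of Notch, was at 6.14 to 6.67 FPKM in the controls and 7.60 to 8.41 FPKM in those labelled null (log2 fold change 0.31 ± 0.09 SE, unadjusted p = 0.0071, limma adjusted p = 0.40). *Notch1*, the receptor through which tip cells restrain their neighbours and which retinal progenitors also use, was at 14.7 to 17.3 FPKM in the controls and 17.8, 29.3 and 19.2 FPKM in those labelled null. *Cxcr4*, a chemokine receptor and the second most abundant gene of the list by mean level, had overlapping groups, with 9.17 to 11.2 FPKM against 10.5 to 14.5 FPKM. The count of 3 was 6 without labelled null replicate 1, and 1 without control replicate 2 or labelled null replicate 2.

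Genes of Norrin signalling and of the blood-retina barrier gave 0 of 13 at either threshold and a median of -0.03. At the unadjusted threshold the count was 3 without labelled null replicate 3 and 1 in 6 other alternatives, among them leaving out control replicate 1 or labelled null replicate 1. *Slc2a1*, the glucose transporter GLUT1 of barrier endothelium and also of retinal glia and photoreceptors, was at 74.7 to 82.1 FPKM in the controls and 80.0 to 84.6 FPKM in those labelled null (95% interval of the log2 fold change -0.09 to 0.22). *Apcdd1*, a Wnt inhibitor of barrier endothelium, and *Lrp5*, the Norrin co-receptor, came nearest to the threshold, with log2 fold changes of 0.21 ± 0.10 SE (limma adjusted p = 0.64) and 0.39 ± 0.17 SE (limma adjusted p = 0.62). The highest *Lrp5* level was 7.33 FPKM, in labelled null replicate 2 (5.15 and 4.52 FPKM in replicates 1 and 3), without which the change was 0.19. *Ocln*, occludin, was the only gene of the 13 whose groups did not overlap, where 14.2% of all genes tested did not. It was at 0.633 to 0.751 FPKM in the controls and 0.482 to 0.557 FPKM in those labelled null.

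The 10 genes of mural cells, the pericytes and smooth muscle that cover vessels, also gave 0 at either threshold. None had groups apart, where 14.2% of all genes tested did. The most abundant, *Vtn* and *Rgs5*, were at 13.3 to 19.6 and 13.7 to 17.6 FPKM in the controls and at 12.4 to 21.0 and 10.7 to 16.8 FPKM in those labelled null. *Anpep*, aminopeptidase N of pericytes, was at 2.19 FPKM in labelled null replicate 2 and between 0.178 and 0.294 FPKM in the other 5 libraries. The mural median was -0.13, and it was 0.07 without labelled null replicate 2.

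Other cells that touch the vessels were read by their own lists. Retinal astrocyte genes, which mark the cells that lay down the template for the vessels, gave 0 of 5 at either threshold, with *Gfap* at 6.18 to 8.50 FPKM in the controls and 4.46 to 8.77 FPKM in those labelled null. Globin and other red blood cell genes, a reading of blood left in the vessels, also gave 0 of 5. They summed to 144 to 290 FPKM in the controls and to 172 to 217 FPKM in those labelled null, with control replicate 3 the lowest. Without that library 3 of the 5 passed the unadjusted threshold, all lower in the libraries labelled null. The remaining controls summed to 241 and 290 FPKM. With the replicate number as a block 2 of the 5 passed. The globin copies are near-identical, so their separate values are uncertain. Of the microglia genes 1 of 6 was higher at the unadjusted threshold (4.6% of all genes), *Csf1r*, their survival receptor, at 3.22, 3.60 and 3.27 FPKM in the controls and 4.63, 4.34 and 4.46 FPKM in those labelled null (log2 fold change 0.40 ± 0.10 SE, unadjusted p = 0.0041, limma adjusted p = 0.34). Perivascular macrophage genes were near 0, with 4 of 5 under the filter, and the one tested, *Lyve1*, a hyaluronan receptor also found on lymphatic endothelium, was at 0.281, 0.715 and 0.280 FPKM in the controls and 0.254, 0.131 and 0.0817 FPKM in those labelled null.

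The genes whose pattern over the 6 libraries was most like the mean log2 level of the 8 endothelial members, *Vegfa* and *Angpt2* left out, were *Epb41l2*, *Mlc1*, *Clec18a*, *Xiap* and *Synpr*, with Pearson r between 0.97 and 0.98 among 12478 genes of at least 1 FPKM. The points are 6 libraries that differ in depth, the mean includes the sparse *Esm1*, and with a pseudocount of 0.01 FPKM the same 5 genes had r between 0.72 and 0.87. No vessel gene of the lists was among the 5.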

How the data were processed

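Retinal RNA at postnatal day 7 was read from 3 mice of each genotype, control and *Lhx4* null, as 1 library per mouse, so the spread between libraries is between animals. The deposited values are FPKM, which the authors made from paired-end reads; the submitters' processing notes name TopHat2, Cufflinks and the build GRCm38, with no versions. No counts were given, so no count model was fitted. Groups and replicate numbers came from the labels, and 0 value columns were left unused.

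The 15200 genes averaging at least 0.1 FPKM were fitted as log2(FPKM + 0.1) in limma 3.58.1 under R 4.3.3 (lmFit, then eBayes using the mean-variance trend), two-sided, with Benjamini-Hochberg adjustment over all of them. On this scale the change of a low gene comes out too small. The script was tested on simulated data. Relative depth came from genes whose low FPKM are whole multiples of 1 fragment, from 67 to 152 genes per ratio of libraries, and for *Esm1* the multiples were within 0.006 of a whole number. Gene identifiers were looked up in GENCODE vM21 (21603 of 21744 found), in which 0% of the exon bases of each member were shared with another gene. Promoters were RefSeq entries of GRCm38.p6 cut to 250 bases before the start; the window of *Ankrd37* was shortened before an exon, and *Pecam1*, *Plvap*, *Vwf* and *Angpt2* had no entry used here. Matplotlib 3.10.9 under Python 3.11.15 drew the figures.

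The members and the gene lists were chosen with earlier results of these data known. A rule set the genes to name: *Lhx4*, the 10 members, the retina-defining genes and the 5 most like the members. From each list it took those past the adjusted p, the 2 with the lowest p and the 2 with the highest mean. The results leave some of these out, such as *Mlana* of the choroid and pigment epithelium list and most retina-defining genes. Other genes are named where a count was 5 or fewer, or for a role, after their values were seen. Alternatives were pseudocounts of 1 and 0.01 FPKM, no filter, a mean of at least 1 FPKM, median of ratios scaling, quantile normalization, no trend, the replicate number as a block, and leaving out each library.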

Additional observations from a re-analysis of the deposited data

How the results depend on the processing

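No member passed the adjusted p under any of the 14 alternatives. Of 640 fits of 46 genes set by the naming rule, 615 kept direction and side of the adjusted threshold. Only *Fbln2* and *Col1a2* of these genes were past it, so for the rest keeping the side means staying short of it. *Col1a2* lost its call in 12 of 14 alternatives and *Fbln2* in 1, and the 12 other fits changed direction. Members at the unadjusted threshold numbered 4, 2 with no filter, 3 with a mean of at least 1 FPKM or the replicate block, and 0 to 3 with a library left out. Genes past the adjusted p numbered 34, 0 with no filter, 15 with the replicate block and 15 to 31 with a library left out, and at the unadjusted threshold 1239, and 690 to 1980 with a library left out. Companion genes past the adjusted p numbered 2, 0 with no filter, and 1 with a pseudocount of 0.01 FPKM, median of ratios scaling, quantile normalization, no trend, the replicate block or any library left out. Deviations of libraries with the same number correlated at -0.13, -0.00 and 0.16, and 2 of 6 libraries correlated best with their own number. Pairing of the mice by number was thus not seen, but with 3 libraries per group this check cannot exclude it. Log2 changes that turned with a library left out ranged from -0.30 to 0.040 for *Flt1* (also 0.0025), from -0.30 to 0.18 for *Gfap* (also 0.03), from -0.29 to 0.21 for *Hba-a2* (also 0.08 and 0.09), from -0.24 to 0.32 for *Hba-a1*, from -0.24 to 0.15 for *Vtn* (also 0.14 and 0.06) and from -0.29 to 0.031 for *Rgs5*. The cause was not tested. The 5 ratios kept their direction in the 9 alternatives run for each, and the median change of all genes stayed between -0.003 and 0.02. At 22 fragments over 6 libraries, *Esm1* was limited by depth, and fragments of other genes were not counted.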
